A study of Mus musculus with 12 samples.

Results

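The 8 genes described here, Insig1, Insig2, Srebf1, Srebf2, Sc5d, Fasn, Acaca and Plin2, belong to sterol sensing, sterol and fatty acid synthesis and lipid storage, and they were set against the 21887 protein-coding genes of the mouse annotation. They were proposed by name with earlier results of these lists known, and every USF2 peak at an end of 1 of them or inside it was collected. USF2 is a transcription factor whose DNA motif is the E-box CACGTG. It was precipitated from mouse embryonic fibroblasts (MEFs), labelled as wild type, after glucose starvation (2 libraries) and in normal culture (2 libraries), and the precipitated DNA was sequenced (ChIP-seq). All 4 libraries share the wild-type genotype and the USF2 antibody, and the duration of the starvation and whether the libraries came from separate cultures are not given in the sources used here. The other 8 of the 12 samples, inputs and H3K27ac libraries, were not analysed here. The lists hold DNA binding calls and no expression, so the labelled cell type could not be set against marker genes.

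Cells make their sterols and fatty acids under the control of the SREBP transcription factors, encoded by Srebf1 and Srebf2. When sterols are plentiful, the INSIG proteins hold the SREBPs in the endoplasmic reticulum, and when sterols fall the SREBPs reach the nucleus and switch on lipid synthesis. Fasn and Acaca encode fatty acid synthase and acetyl-CoA carboxylase 1, Sc5d encodes sterol-C5-desaturase, a late enzyme of cholesterol synthesis, and Plin2 encodes perilipin 2, a coat protein of lipid droplets. USF proteins are known as activators of the fatty acid synthase promoter in liver and fat tissue.

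Of the 8 genes, 3 had a USF2 peak at their promoter end after glucose starvation, Insig1, Sc5d and Plin2, in both starved libraries. A peak at either end in both starved libraries was found for 1.78% of all protein-coding genes. The 8 genes had been proposed with earlier results of these lists known. In normal culture Sc5d had a weak peak in 1 library, and Insig1 and Plin2 had none. The promoters of these 3 genes each hold 1 E-box, and none of the promoter windows tabulated for the other 5 genes holds one, although for Acaca, Srebf1 and Fasn these windows do not reach the gene end. Their promoter sequences are shown first, together with that of Fasn, a member without a peak at its ends. Each line runs 5′ to 3′ in the direction of transcription, from 250 bases before to 50 bases after an annotated start site, and comes from RefSeq for GRCm38.p6, and capitals mark the E-box CACGTG.
Insig1 promoter (chr5:28071162-28071461, plus strand): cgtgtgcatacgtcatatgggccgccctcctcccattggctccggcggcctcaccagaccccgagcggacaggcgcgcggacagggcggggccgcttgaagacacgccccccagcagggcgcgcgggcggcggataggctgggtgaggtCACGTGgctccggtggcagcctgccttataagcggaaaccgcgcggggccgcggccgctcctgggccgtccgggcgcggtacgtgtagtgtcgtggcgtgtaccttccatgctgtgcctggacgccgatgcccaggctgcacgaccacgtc
Sc5d promoter (chr9:42264251-42264550, minus strand): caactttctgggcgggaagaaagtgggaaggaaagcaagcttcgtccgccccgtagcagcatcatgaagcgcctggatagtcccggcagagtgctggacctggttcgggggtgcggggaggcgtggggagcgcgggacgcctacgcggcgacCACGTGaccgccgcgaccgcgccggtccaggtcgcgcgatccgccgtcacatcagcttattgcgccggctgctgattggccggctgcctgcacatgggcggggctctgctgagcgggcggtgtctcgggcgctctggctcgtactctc
Plin2 promoter (chr4:86670010-86670309, minus strand): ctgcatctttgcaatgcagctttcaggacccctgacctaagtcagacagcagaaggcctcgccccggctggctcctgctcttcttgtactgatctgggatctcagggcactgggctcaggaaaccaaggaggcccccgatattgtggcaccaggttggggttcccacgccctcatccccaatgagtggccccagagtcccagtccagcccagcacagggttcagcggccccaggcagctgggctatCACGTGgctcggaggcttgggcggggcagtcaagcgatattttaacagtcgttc
Fasn promoter (chr11:120824498-120824797, minus strand): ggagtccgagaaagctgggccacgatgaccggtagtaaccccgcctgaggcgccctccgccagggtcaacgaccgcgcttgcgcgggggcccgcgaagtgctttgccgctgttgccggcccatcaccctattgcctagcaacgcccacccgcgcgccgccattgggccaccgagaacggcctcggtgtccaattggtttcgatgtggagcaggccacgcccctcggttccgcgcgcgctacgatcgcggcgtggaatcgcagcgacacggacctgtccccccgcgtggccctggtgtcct

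The E-box of Insig1 began 101 bp upstream of its start site and that of Sc5d 98 bp upstream. The E-box of Plin2 began 4 bp upstream and covered the start site itself. In the direction of transcription the E-box was followed by the bases gctc in both Insig1 and Plin2, and by accg in Sc5d. It was preceded by aggt in Insig1, ctat in Plin2 and cgac in Sc5d. Either side of this motif can be read first, so no pairing of the genes is read from these bases. All 8 genes matched the promoter table, with 12 windows, of which 3 held CACGTG. Of all 32851 promoter windows of 300 bases, 7.15% held it. CACGTG reads the same on both strands. The E-box flanked by GT and AC, present in 0.326% of windows, and TCACNCCAC, a form of the sterol regulatory element bound by SREBPs and present in 1.24% of windows, were searched on both strands and were in none of the 12 windows. The variant CATGTG, a search on both strands added after the data were seen and matched in 14.2% of all windows, was present once in Sc5d and once in Srebf1. A match describes the sequence and does not show a binding site.

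A gene was counted as called in a list when a peak summit of that list lay within 1000 bp of either end of the gene. By this rule 3 of the 8 genes were called in starved 1, against 2.01% of all protein-coding genes, and 3 in starved 2, against 2.3%. In normal 1 the count was 1 of 8, against 2.54% of all genes, and in normal 2 it was 0 of 8, against 2.68%. Both starved lists called 3 of the 8, against 1.78% of all genes, and both normal lists called 0 of 8, against 2.19%. Any list called 3 of 8, against 4.05% of all genes. The genes were proposed with earlier results of these lists known, so these shares describe the members and are no test of the group.

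**Figure D1:**
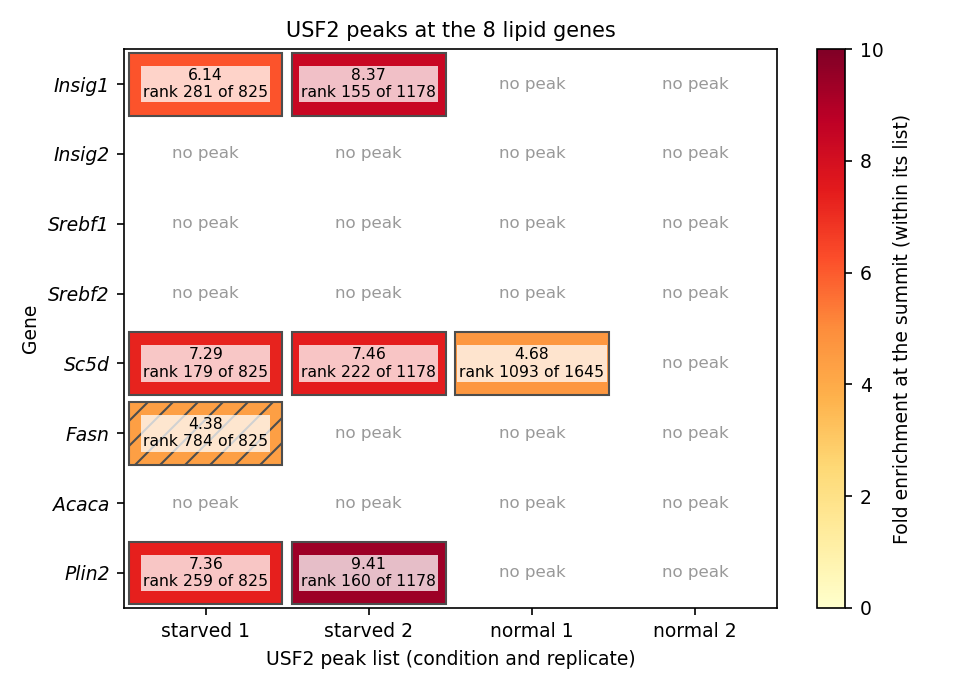
Fold enrichment of each USF2 peak at the 8 genes (rows) in the 4 peak lists (columns), with its rank by −log10 q in its list, where hatching marks a peak inside the gene and not at its end. Insig1, Sc5d and Plin2 have a peak in both starved lists, and Sc5d alone also has one in normal 1.

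Insig1 encodes an endoplasmic reticulum protein that retains the SREBPs and takes part in the breakdown of HMG-CoA reductase. Its peaks covered positions 28071145 to 28071561 of chromosome 5 in starved 1 and 28071121 to 28071504 in starved 2 (GRCm38; gene span 28071412 to 28078662), with no peak in normal 1 or normal 2. The fold enrichment, the ratio of reads at the summit to the local background that the authors' peak caller gave, was 6.14 in starved 1 and 8.37 in starved 2. The −log10 q was 6.05 in starved 1 and 10.7 in starved 2. These peaks ranked 281 of 825 and 155 of 1178 in their lists, within the best 34.1% and 13.2% of all peaks. Among peaks at ends of protein-coding genes alone they ranked 227 of 366 and 131 of 417. The summits lay 92 and 153 bp upstream of the start site, and they were 7 and 55 bp from the centre of the E-box. Both starved peaks contain the E-box, their starts being 24 bp and their ends 57 bp apart. The promoter lies inside the span of the long noncoding RNA gene Gm35223, whose nearest end lay 52595 bp from the starved 1 summit.

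Sc5d had its peaks at positions 42264222 to 42264659 of chromosome 9 in starved 1, 42264274 to 42264655 in starved 2 and 42264333 to 42264484 in normal 1 (gene span 42251592 to 42264300, minus strand). Its fold enrichment was 7.29 in starved 1, 7.46 in starved 2 and 4.68 in normal 1, and normal 2 had no peak there. Over all peaks of a list, the Sc5d peak ranked 179 of 825 in starved 1, 222 of 1178 in starved 2 and 1093 of 1645 in normal 1. Among peaks at ends of protein-coding genes alone it ranked 151 of 366, 178 of 417 and 403 of 459. The −log10 q was 8.99 in starved 1, 8.11 in starved 2 and 2.92 in normal 1. The normal 1 peak lay wholly inside both starved peaks. The summits of starved 1, starved 2 and normal 1 were 2, 70 and 15 bp from the E-box centre. The peak of every list contained the E-box.

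Plin2 had its peaks at positions 86669931 to 86670317 of chromosome 4 in starved 1 and 86669826 to 86670221 in starved 2 (gene span 86626910 to 86670217, minus strand), and normal 1 and normal 2 had none there. The fold enrichment was 7.36 in starved 1 and 9.41 in starved 2, the highest of the 8 genes in each of these lists. In starved 1 it was close to the 7.29 of Sc5d, whose peak ranked higher by −log10 q. The −log10 q of the Plin2 peaks was 6.5 in starved 1 and 10.5 in starved 2. These peaks ranked 259 of 825 and 160 of 1178 over all peaks, and 213 of 366 and 136 of 417 among peaks at ends of protein-coding genes. The summits fell on either side of the start site, 19 bp upstream in starved 1 and 23 bp downstream in starved 2, and were 18 and 25 bp from the E-box centre. In normal 1 the nearest peak lay 14.7 kb outside Plin2, 122 bp from an end of the neighbouring gene Haus6.

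**Figure D2:**
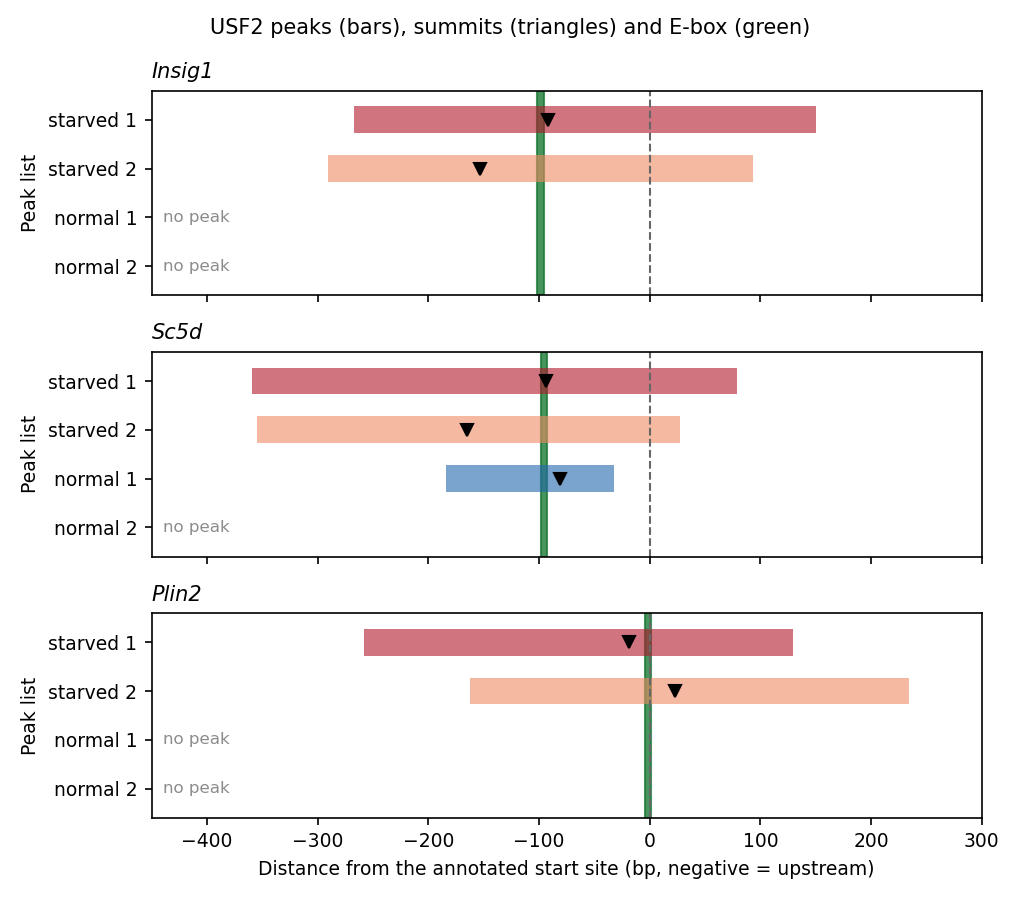
Extent of each peak (bars) and its summit (triangles) in bp from the annotated start site (dashed line) for Insig1, Sc5d and Plin2, 1 row per peak list, with the E-box as a green band. Every peak drawn contains the E-box of its gene, with summits from 2 to 70 bp away from its centre.

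No other gene had an end within 1000 bp of the summit of any of these peaks, so each was assigned to 1 gene. The farthest of these summits lay 181 bp from its gene end (Plin2 in starved 2), and the nearest member summit beyond the 1000 bp limit was that of Fasn at 1055 bp. At none of the 3 genes did 2 lists share a peak edge. A summit close to an E-box was usual where a summit of these lists fell in a promoter window, and sequence at peaks outside the windows was not read. Among promoter windows that hold a summit, 87.0% of 292 in starved 1 and 85.5% of 332 in starved 2 had a CACGTG, as did 69.1% of 379 in normal 1 and 64.1% of 407 in normal 2. The median distance of the summit to the nearest E-box in those windows was 17.5 bp in starved 1 and 23.0 bp in starved 2, and 13.0 bp in normal 1 and 11.5 bp in normal 2. In starved 1 the summits of Insig1 and Sc5d were closer than that median and that of Plin2 was near it. In starved 2 all 3 summits were farther than the median of that list, and those of Insig1 and Sc5d lay beyond its upper quartile of 46.8 bp.

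The reads behind these peaks are few. The number of reads at a summit and the local background were recovered from the deposited fold enrichment and −log10 p. At Insig1 there were 15 reads in starved 1 (95% exact Poisson interval 8.4 to 24.7) over a background of 1.61, and 18 in starved 2 (10.7 to 28.4) over 1.27. At Sc5d there were 18 reads in starved 1 over a background of 1.61, 15 in starved 2 over 1.14, and 12 in normal 1 (6.2 to 21.0) over 1.78. At Plin2 there were 10 reads in starved 1 (4.8 to 18.4) over 0.494 and 12 in starved 2 over 0.381. The intervals of each gene overlap between all lists that call it, so its read numbers cannot be put in order. Plin2 thus had the highest fold enrichments over a lower background than Insig1. Its read counts were below those of Insig1, but the intervals of these genes overlap in each starved list. The intervals cover counting error only.

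**Figure D3:**
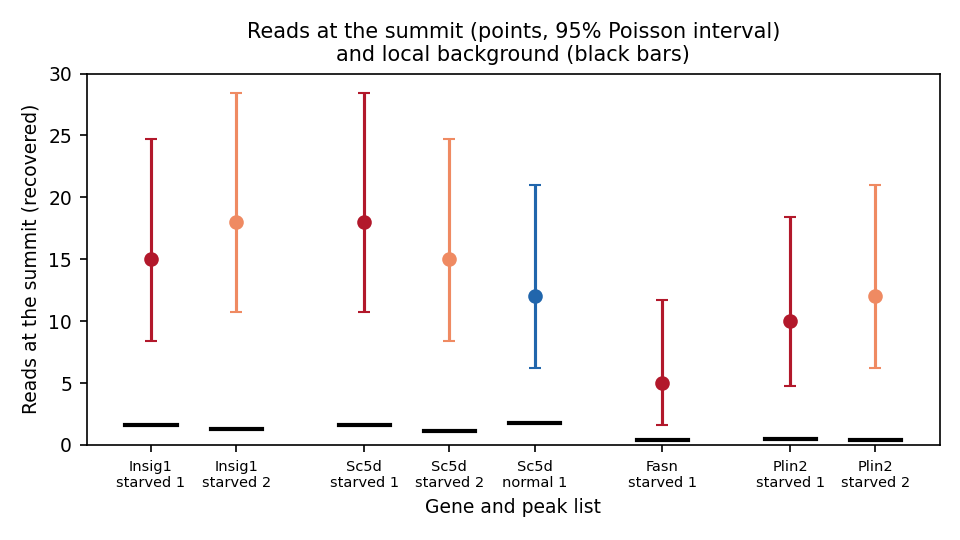
Reads at the summit of each peak at the 8 genes (points, with 95% exact Poisson intervals) and the local background in reads (black bars), by gene and peak list. The points lie between 5 reads at the Fasn peak and 18 reads at Insig1 in starved 2 and Sc5d in starved 1, and each interval lies above its background.

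A missing call is not a measurement of absent binding. In both normal lists the fewest reads of any peak over a background of 1 to 2 reads, the range seen at Insig1 and Sc5d, were 9 in normal 1 and 8 in normal 2. Over a background of 0.3 to 0.6 reads, the range seen at Plin2, the fewest were 4 reads in both normal lists. The background at Insig1 and Plin2 in the normal libraries is not in the lists. The narrowest peak was 306 bp in both starved lists and 152 bp in both normal lists, so the calls of the conditions were made with unlike widths, and starvation, calling width and library cannot be told apart here.

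The number of the 8 genes with a gene-end peak was 3.0 ± 0 per starved list and 0.5 ± 0.707 per normal list (SD, n = 2 each), a difference of 2.5 genes. The counts of the conditions do not overlap, but the genes were proposed with these calls known, so this is a description. The shares of all protein-coding genes called went the other way, 2.01% and 2.3% in the starved lists against 2.54% and 2.68% in the normal lists. An exact permutation test over 2 lists against 2 cannot give a p below 0.333, and none is read here. The starved lists, which called more of the 8 genes, were the shorter ones, with 825 and 1178 peaks on the assembled chromosomes, against 1645 and 2124 in the normal lists.

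Insig1 and Plin2 shared their pattern, both starved lists and neither normal list, with 0.557% of protein-coding genes (122 genes, these 2 included). Ordered by their mean rank percentile in the starved lists, Plin2 came 33rd and Insig1 40th of the 122. The genes most like Insig1 in rank percentile were Btbd7, Plin2 and Cfl2, with mean absolute differences of 1.26, 1.55 and 2.5 percentage points over 2 lists. Those most like Plin2 were Cfl2, Batf3 and Rufy1, with 1.38, 1.42 and 1.53 percentage points. The pattern of Sc5d, both starved lists and normal 1 without normal 2, was that of 0.0457% of genes (10 genes). Nearest to Sc5d were Ccdc57, Ccdc91 and Sirt1, with 4.0, 8.23 and 12.2 percentage points over 3 lists.

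**Figure D4:**
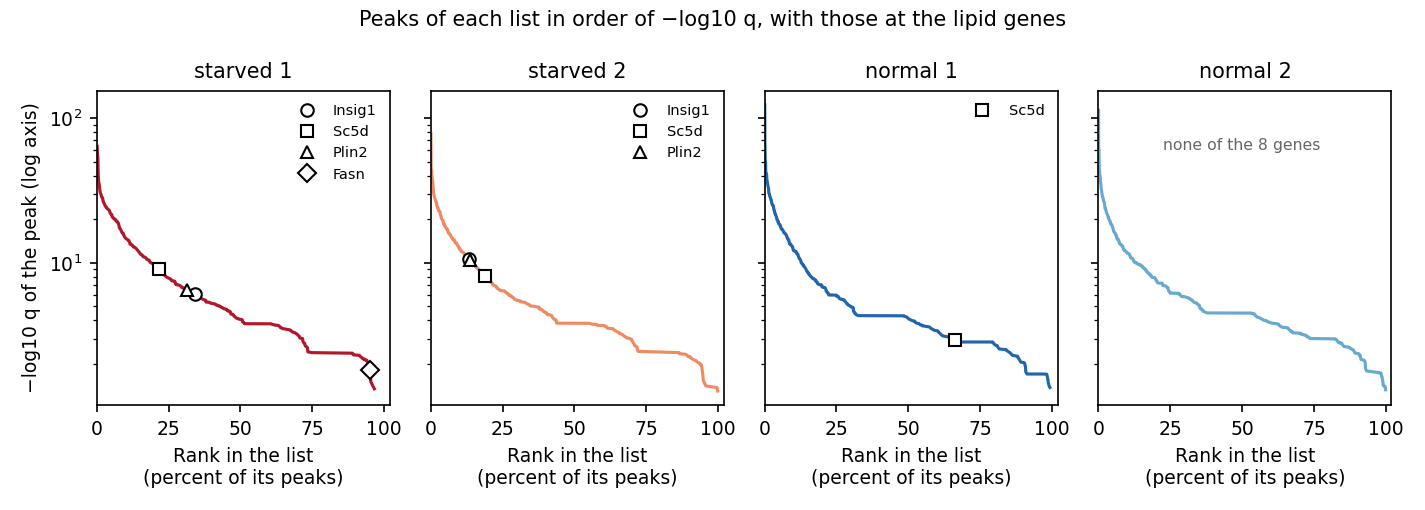
The −log10 q (log axis) of all peaks of each list against their rank as a percentage of the list, with the peaks at the 8 genes marked. In the starved lists Insig1, Sc5d and Plin2 lie within the best 34.1% of all peaks, and in normal 1 Sc5d lies at 66.4%.

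The E-box was common among genes that share the pattern of Insig1 and Plin2. Of the genes with a promoter window, 66 of 107 (61.7%) that were called in both starved lists and no normal list had a CACGTG in a window, Insig1 and Plin2 among them. For the pattern of Sc5d it was 6 of 8 genes, Sc5d among them. The share was 74.0% of 196 genes called in all 4 lists, 24.1% of 145 called in both normal lists and no starved list, and 7.24% of 16771 called in no list. Conversely, 14.3% of the 1559 genes with a CACGTG were called in both starved lists, and 0.609% of the 15933 genes without one.

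**Figure D5:**
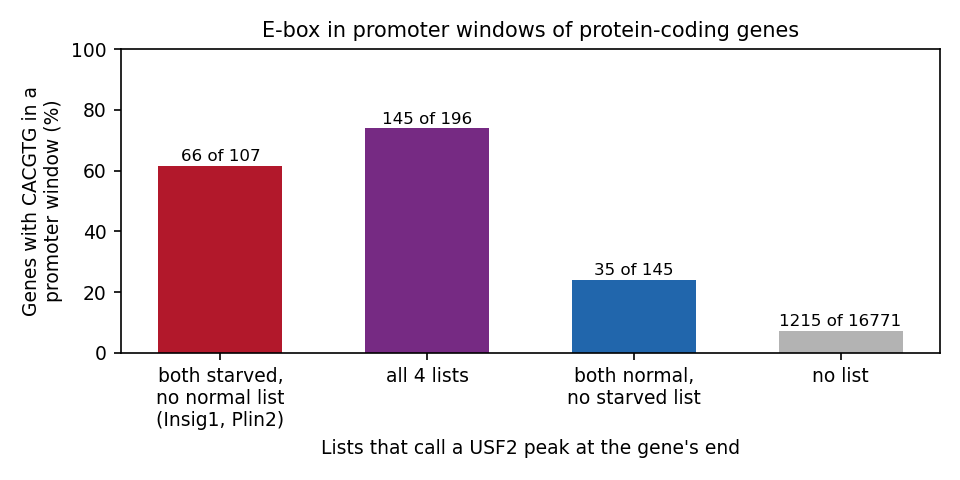
Percentage of protein-coding genes with CACGTG in a promoter window, by the lists that call a USF2 peak at an end of the gene, with the number of genes above each bar. Genes called in both starved lists and no normal list, such as Insig1 and Plin2, have it in 61.7% and genes called in no list in 7.24%.

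The other 5 genes had no peak at an end in any list. Fasn had a single peak inside the gene, in starved 1 alone, at positions 120806908 to 120807213 of chromosome 11, 17534 bp downstream of its start site and 1055 bp from the far end of the gene. It was among the weakest of that list, with a fold enrichment of 4.38, a −log10 q of 1.81, rank 784 of 825 and 5 reads (95% exact Poisson interval 1.62 to 11.7) over a background of 0.37. Counting peaks inside genes, starved 1 called 4 of the 8 genes, against 3.23% of all genes. A stronger site lay outside Fasn. All 4 lists had a peak 9.5 kb beyond its far end, with fold enrichments of 10.3 and 8.34 in the starved lists and 7.32 and 7.32 in the normal lists, and its summits were 11 to 19 bp from an end of Dus1l, a neighbouring gene of tRNA modification. It therefore counts for Dus1l and not for Fasn.

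Insig2, Srebf1, Srebf2 and Acaca had no peak at an end or inside the gene in any list. Insig2, the second INSIG gene, had its nearest peak between 429 and 1780 kb away over the 4 lists. Insig1 was called in both starved lists and Insig2 in none. A missing call does not measure absent binding, so USF2 binding at the INSIG genes is not compared. Srebf1, whose products chiefly drive fatty acid genes, had its nearest peak between 109 and 193 kb away. Srebf2, whose product chiefly drives cholesterol genes, had a peak 13.2 kb away in starved 2 (fold enrichment 6.0), inside the neighbouring gene Ccdc134, and none nearer than 64.7 kb in the other lists. Acaca, at 272 kb the longest of the 8 genes, had its nearest peak between 165 and 738 kb away. The table gives 1 start site for Acaca, Fasn and Srebf2 and 3 each for Insig2 and Srebf1, and none of these windows held CACGTG. The only Acaca start site in it lies 65.8 kb inside the annotated span, that of Fasn 619 bp inside and those of Srebf1 1.6 kb or more inside, so the sequence at these gene ends was not read.

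Other genes of lipid metabolism had few peaks at their ends. Of 83 other genes in 5 lists (SREBP control, cholesterol synthesis, fatty acid synthesis, lipid droplets and triglycerides, and sterol uptake, export and esterification), none was called in starved 1, starved 2 or normal 1, and 1 in normal 2. That is 1.2% called in any list, against 4.05% of all protein-coding genes, and at these shares a list of this size has few calls. The gene was G0s2, which encodes an inhibitor of the triglyceride lipase ATGL (fold enrichment 4.55, −log10 q 3.0, rank 1563 of 2124, 841 bp from a gene end). The count was 0 of 11 for SREBP control, 0 of 20 for cholesterol synthesis, 0 of 17 for fatty acid synthesis, 1 of 22 for lipid droplets and triglycerides and 0 of 13 for uptake, export and esterification. Of the 64 other lipid genes with a promoter window, 9 held a CACGTG without a call in any list, Hsd17b7, Dhcr7, Scap, Elovl5, Slc25a1, Abca1, Lipe, Mgll and Lpin2. Of all genes with a CACGTG in a window 22.1% were called in any list, so most such genes had no call. The 3 members with a CACGTG were called in both starved lists, and they had been chosen with those calls known. Counting peaks inside genes in any list, 4 of the 8 members and 13 of the 83 other lipid genes (15.7%) had one, against 10.5% of all protein-coding genes.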

How the data were processed

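USF2 ChIP-seq peak lists of 4 libraries from wild-type MEFs were used, 1 list per library. Tools named in the submitters' processing notes were MACS2 2.2.7.1, Bowtie2 2.5.1 and deepTools 3.5.1, with GRCm38 as build, and whether inputs served as control is not given in the sources used here. For each peak the authors deposited a fold enrichment (a ratio), −log10 p and −log10 q values, a score (the whole-number part of −log10 q multiplied by 10) and a summit. Fold enrichments depend on each library's depth and width, so they were ranked within a list. The sequencing depth is unknown. Of starved 2, 8 peaks on unplaced sequences were left out. Gene spans and promoter sequences came from RefSeq for GRCm38.p6. Reads at a summit were recovered as the whole number that, with a pseudocount of 1 read on summit and background, gives the fold enrichment and comes nearest to the deposited −log10 p under a Poisson model, and all peaks came within 0.001. The planned exact permutation test over lists is not used as evidence, since the genes were chosen with their calls known. The calling and recovery steps were tested on simulated data. Python 3.11.15, pandas 2.3.3, numpy 2.4.6 and SciPy 1.17.1 were used.

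The members and lists were chosen with earlier results of these data known. The text names all 8 genes, other lipid genes with a gene-end peak, with values where at least 2 lists call them (the only one called is given as well), genes with an end within 1000 bp of a member's summit, and, for members called in at least 2 lists, the 3 genes of the same call pattern nearest in rank percentile. Neighbouring genes and lipid genes with inside peaks were named after their values were seen. Alternatives were windows of 500 and 5000 bp, −log10 q of at least 5, equal list lengths, any overlap, peaks inside genes, all annotated genes, a replicate block and leaving out each library. Replicate numbers are not stated to mark shared cultures.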

Additional observations from a re-analysis of the deposited data

How the results depend on the processing

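The difference in called genes per list between starved and normal lists was between 2.5 and 3.0 genes under the windows of 500 and 5000 bp, −log10 q of at least 5, the 825 best peaks of each list, any overlap, and peaks inside genes, and between 2.0 and 3.0 when each library was left out. Fasn was the fourth gene in starved 1 under 5000 bp, any overlap and peaks inside genes. With a replicate block the difference was 2.5. No p is read from these settings, since the genes were chosen with the calls known and so few lists cannot pass a threshold. Both starved lists called 3 of the 8 genes under every one of these settings, and 3 when either starved library was left out. The share of all protein-coding genes called in both starved lists was computed for the 1000 bp rule alone (1.78%). The counts under the other settings therefore describe the members only. Both normal lists called 0 under every setting, and without a normal library the remaining list called 0 or 1, the 1 being Sc5d in normal 1. That Sc5d call was lost with −log10 q of at least 5 and with the 825 best peaks. The calls at the other 83 lipid genes depended on the window. Within 5000 bp they were 0 in starved 1, 1 in starved 2, 3 in normal 1 and 6 in normal 2, and the single call in normal 2 dropped to 0 within 500 bp and with −log10 q of at least 5. The share of all genes within 5000 bp was not computed, and the normal lists hold more peaks (1645 and 2124) than the starved lists (825 and 1178). The counts within 5000 bp are therefore not compared between conditions. With the 1000 bp rule, the shares called over all 49943 annotated genes were 1.03% and 1.21% in the starved lists and 1.35% and 1.47% in the normal lists. The few reads per summit limit the precision of each peak.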

Other observations

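Several lipid genes outside the 8 had USF2 peaks inside the gene and away from its ends, and they were picked here after their values were seen. Acacb, which encodes the mitochondrial isoform of acetyl-CoA carboxylase and is the paralog of Acaca, had 1 in every list on chromosome 5 (114172842 to 114173401 in starved 1). Its fold enrichments were 7.07 in starved 1, 6.92 in starved 2, 7.25 in normal 1 and 6.34 in normal 2, on 7, 7, 7 and 6 reads in that order, with ranks 237 of 825, 281 of 1178, 293 of 1645 and 598 of 2124. The summits lay between 7611 and 7634 bp from the start site in the promoter table. Acaca had no peak inside the gene in any of the 4 lists.

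Mylip, which encodes a ubiquitin ligase that degrades the LDL receptor, had a peak inside the gene in starved 2 (fold enrichment 9.25, rank 114 of 1178, 20 reads) and in normal 2 (5.54, rank 473 of 2124, 21 reads), and in neither replicate 1. Scap, which escorts the SREBPs out of the endoplasmic reticulum, had peaks inside the gene in both normal lists alone. At the site they share, the fold enrichments were 4.55 in normal 1 and 5.46 in normal 2, on 4 and 5 reads. The Scap peaks there ranked 1102 of 1645 and 806 of 2124. Bscl2, the gene of the lipid droplet protein seipin, had 1 in both normal lists alone, 112 bp from an annotated start site. Its fold enrichments were 4.28 and 5.14 on 4 and 5 reads. They were weak peaks, with ranks of 1452 of 1645 in normal 1 and 1422 of 2124 in normal 2. The Bscl2 peaks have identical edges in both normal lists (chromosome 19, 8840292 to 8840443). The peaks inside Scarb1, a receptor for high-density lipoprotein, also have identical edges in both normal lists (chromosome 5, 125299496 to 125299675), with fold enrichments of 6.38 and 5.46. Whether identical edges come from shared reads was not tested. The share of all genes with inside peaks in both normal lists alone was not computed, and the normal lists hold more peaks than the starved lists. The calls at Scap, Bscl2 and Scarb1 are therefore not read as a difference between conditions.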
